A study of Mus musculus with 8 samples.

Results

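The 10 genes described here encode receptors for bone morphogenetic proteins (BMPs), activins and transforming growth factors beta (TGF-beta), and they were chosen by name as the set Bmpr1a, Bmpr1b, Acvr1, Acvr1b, Tgfbr1, Bmpr2, Acvr2a, Acvr2b, Tgfbr2 and Tgfbr3, out of 24421 genes counted in each library. All 10 had at least 1 read on each kit. The libraries came from R1, an established line of mouse embryonic stem cells. The Undiff group received no retinoic acid (RA), an inducer of differentiation, whereas the Day4 group consisted of embryoid bodies kept with RA for 4 days at 2 µM by the series design and the study's methods (the treatment label gives the same figure in mM). The labels describe the Undiff samples too as embryoid bodies, whereas the study's methods describe Undiff as stem cells kept in growth medium with leukaemia inhibitory factor (LIF) and Day4 as embryoid bodies grown without LIF for 4 days before RA was added. The labels name no transgene or deletion, both groups came from the same cell line, and no group received RA for a shorter time or the solvent alone, so that RA, the loss of LIF, aggregation and time in culture cannot be told apart. Polyadenylated RNA of each state was read on flow cells of Oxford Nanopore Technologies (ONT) after preparation with 2 kits, Direct RNA, in which the RNA strand itself is read, and cDNA, in which a PCR-amplified copy is read, with 2 replicates per state and kit and thus 8 libraries in 4 groups. The study's methods describe the replicates as cultures grown and treated separately.

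Receptors of this family act in pairs of classes. A dimeric ligand brings together type II receptors, whose kinases are always active, and type I receptors, which the type II kinases phosphorylate and which then phosphorylate the receptor-regulated Smad proteins. BMP type I receptors (Bmpr1a, Bmpr1b, Acvr1) act on Smad1, Smad5 and Smad9, and the activin, nodal and TGF-beta type I receptors (Acvr1b, Tgfbr1) act on Smad2 and Smad3. Type III receptors such as Tgfbr3, also called betaglycan, have no kinase and present ligand to the others. In mouse embryonic stem cells, BMP signals are known for holding back neural differentiation and nodal and activin signals for their part in early lineage choice.

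Reads on genes ranged from 283461 to 907489 in the Direct RNA libraries and from 948657 to 2088592 in the cDNA libraries, and 1 read was worth between 0.479 and 3.53 CPM (reads on a gene per 1000000 reads on all genes). A count of 3 reads, taken as the limit that a count of 0 allows, came to between 1.44 and 10.6 CPM. Folds written as at least put 3 reads in each library at 0 and leave out the counting error of the higher group. Replicate 2 was the deeper library in every group. Of 6 pluripotency markers, all had reads in each group, and their summed level ranged from 9792 to 11757 CPM in Direct RNA Undiff and from 19906 to 22725 CPM in cDNA Undiff, against 106 to 512 and 81.2 to 911 CPM at Day4. In Direct RNA Day4, replicate 1 stood above replicate 2 for long genes (a median log2 ratio of 0.49 over 1595 genes with a longest transcript of at least 5000 bases, against -0.07 over 6083 shorter genes), and for 6 of the receptors with at least 20 reads in that pair the median log2 ratio was 0.82. In cDNA Day4 the order was the reverse, with medians of -0.40 over long genes, -0.19 over shorter genes and -0.46 over 6 receptors, none of which was above 0. Among Undiff libraries the ratios of long and shorter genes differed less, at 0.11 and 0.042 in Direct RNA, where the median over 3 receptors was -0.59, and at -0.22 and -0.18 in cDNA. The part of transcript length in the receptor results was not tested beyond the fits without that library, which are given below.

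At Day4, Bmpr2 and Tgfbr3 were higher than in Undiff cells on both kits, Bmpr2 by 12.9-fold in Direct RNA and 18.2-fold in cDNA on mean CPM, and Tgfbr3 by at least 8.95-fold and by 53.8-fold. The other 8 receptors did not pass the thresholds of a differentially expressed gene (DEG) on either kit, and all of them but Bmpr1a gave 40 reads or fewer in every library. DEGs were called by DESeq2 where the Benjamini-Hochberg adjusted p was 0.05 or lower, the log2 fold change reached 1 in either direction and the normalized count averaged 5 or more. A positive log2 fold change means higher at Day4. In these bulk samples, more cells of a type and more RNA per cell cannot be told apart. The CPM in each library are plotted for the 10 receptors.

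**Figure D1:**
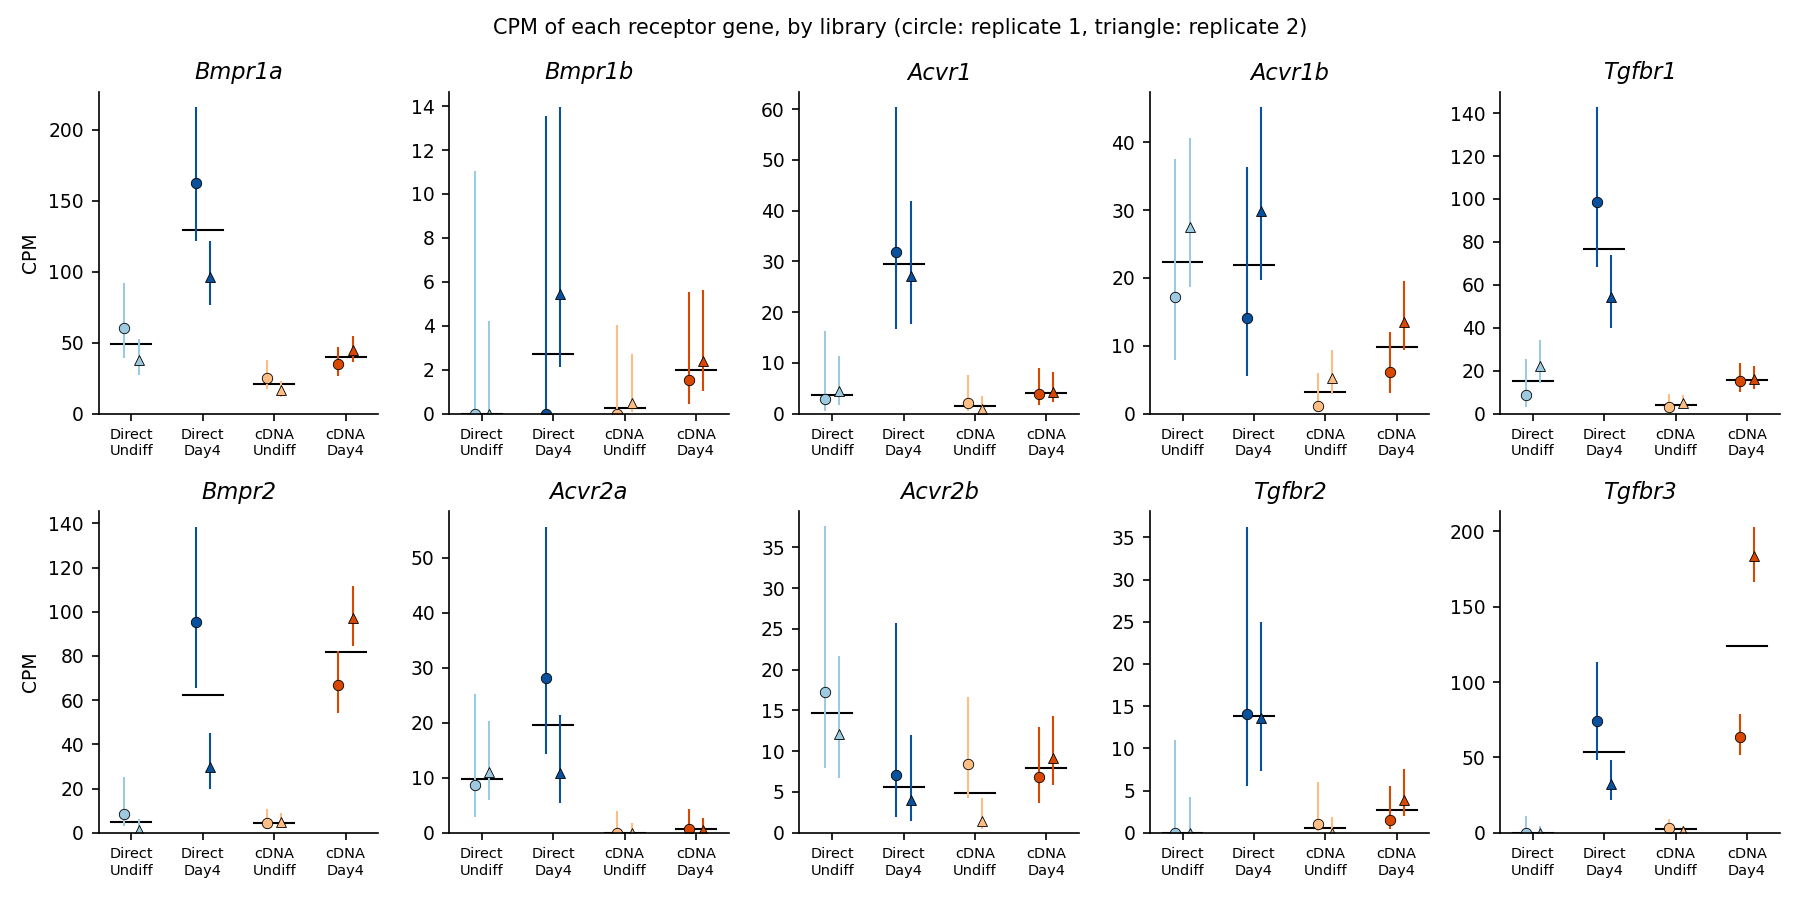
CPM (vertical axes from 0, a scale of its own in each panel) for each of the 10 receptors in Direct RNA and cDNA libraries of Undiff and Day4 cells, where circles are replicate 1, triangles replicate 2, vertical bars the 95% Wilson interval of the library's count and horizontal lines the mean of 2 libraries. Bmpr2 and Tgfbr3 sat at or below 8.61 CPM in every Undiff library and at or above 29.8 CPM in every Day4 library.

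Bmpr2, the type II receptor dedicated to BMPs, lies on chromosome 1 (GRCm38, chr1:59763400-59879014, + strand, 13 exons), and its longest transcript, of 12899 bases, is the longest in the set. In Direct RNA it had 3 and 1 reads in the Undiff replicates and 27 and 22 reads in the Day4 replicates. In cDNA it had 4 and 10 reads in Undiff and 88 and 202 reads at Day4. Every Day4 library thus stood above every Undiff library, also across kits. The mean level rose from 4.86 ± 5.31 to 62.5 ± 46.3 CPM in Direct RNA and from 4.50 ± 0.404 to 82.0 ± 21.6 CPM in cDNA (SD, n = 2). The difference passed the DESeq2 test on both kits, where the log2 fold change in Direct RNA was 3.38 (SE 0.93, adjusted p = 0.0047) and that in cDNA was 3.68 (SE 0.63, adjusted p = 3.8e-07). The Direct RNA call rested on few Undiff reads, and it was lost without Undiff replicate 2 (2.26, adjusted p = 0.51) or without Day4 replicate 1 (1.93, adjusted p = 0.63). The cDNA call was kept without any 1 of the 4 cDNA libraries, at log2 fold changes between 3.36 and 3.67.

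Tgfbr3, the type III co-receptor that binds TGF-beta and inhibin, lies on chromosome 5 (GRCm38, chr5:107106570-107289629, - strand, 17 exons). No read fell on it in either Direct RNA Undiff library, which allows up to 8.61 and 3.31 CPM, against 21 and 24 reads at Day4. In cDNA it had 3 reads in each Undiff library and 84 and 382 reads at Day4. The states did not overlap on either kit, and cDNA Day4 replicate 2 was the highest of the 8 libraries (184 CPM). The mean at Day4 was 53.3 ± 29.4 CPM in Direct RNA, and in cDNA the mean rose from 2.30 ± 1.22 to 124 ± 85.0 CPM (SD, n = 2). DESeq2 called the gene on both kits. In cDNA the log2 fold change was 5.17 (SE 0.74, adjusted p = 3.3e-10), and in Direct RNA the adjusted p was 0.00019. In the latter the fitted log2 fold change of 5.41 depends on the prior because Undiff is at 0, and the bound on mean CPM with 3 reads put in each Undiff library is the 8.95-fold given above. The Direct RNA call was lost without Undiff replicate 2 (log2 fold change 4.11, adjusted p = 0.11), without Day4 replicate 1 (3.80, adjusted p = 0.075), or with the replicate number as a block (1.62, adjusted p = 0.84). In cDNA it was kept in every fit tried, at log2 fold changes between 4.16 and 5.55. Its exons share 297 bases with those of Gm43422 on the same strand, a gene that was not counted.

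The remaining type II receptors were low, and their read numbers limit what can be said of a change. Acvr2a, an activin and BMP receptor (GRCm38, chr2:48814109-48903269, + strand), had 3 and 10 reads in Direct RNA Undiff and 8 and 8 reads at Day4, so that the states overlapped on the CPM scale (log2 fold change 0.68, SE 1.01). In cDNA it had no read in either Undiff library and 1 read in each Day4 library. Acvr2b, its close relative (GRCm38, chr9:119402118-119434995, + strand), had 6 and 11 reads in Direct RNA Undiff and 2 and 3 reads at Day4. It was the only receptor whose Day4 libraries both lay below both Undiff libraries on a kit, with a log2 fold change of -1.26 (SE 1.13, 95% interval -3.48 to 0.96) that missed the threshold (adjusted p = 0.66). In cDNA Acvr2b had 8 and 3 reads in Undiff and 9 and 19 reads at Day4, which overlapped (0.36, SE 1.03). Tgfbr2, the type II receptor for TGF-beta (GRCm38, chr9:116084293-116175360, - strand), had no read in Direct RNA Undiff against 4 and 10 reads at Day4. Its mean there was at least 2.32-fold higher. In cDNA Tgfbr2 had 1 and 0 reads in Undiff and 2 and 8 reads at Day4, a ratio of pooled CPM of 8.94 with a counting interval from 1.27 to 388. Its Day4 libraries stood above its Undiff libraries on both kits, but its mean normalized count, 3.32 in Direct RNA and 2.21 in cDNA, was under the minimum for a call.

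Among the type I receptors, 3 had both Day4 libraries above both Undiff libraries on each kit, and none passed the DESeq2 thresholds. Bmpr1a, the main BMP type I receptor of early embryos (GRCm38, chr14:34410734-34503341, - strand, 13 exons), had 21 and 34 reads in Direct RNA Undiff and 46 and 71 reads at Day4. In cDNA it had 24 and 34 reads in Undiff and 46 and 93 reads at Day4. Its mean was 2.65-fold higher at Day4 in Direct RNA (48.9 ± 16.1 to 129 ± 46.7 CPM) and 1.92-fold higher in cDNA (20.8 ± 6.38 to 39.8 ± 6.98 CPM, SD, n = 2). The shrunken log2 fold changes were 1.27 (SE 0.53, adjusted p = 0.11) and 0.59 (SE 0.59, adjusted p = 0.72). Its exons share 290 bases with Gm17110 on the opposite strand, which was not counted. The quasi-likelihood test of edgeR called Bmpr1a in Direct RNA (1.32, adjusted p = 0.0056) and not in cDNA (adjusted p = 0.38).

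Tgfbr1, the type I receptor for TGF-beta (GRCm38, chr4:47353222-47414931, + strand, 9 exons), had 3 and 20 reads in Direct RNA Undiff and 28 and 40 reads at Day4. In cDNA it had 3 and 10 reads in Undiff and 20 and 33 reads at Day4. All 4 Day4 libraries were above the Undiff libraries of the same kit, by 4.99-fold and 3.91-fold on mean CPM. The log2 fold change of 1.94 (SE 0.71, 95% interval 0.54 to 3.34) in Direct RNA lay just outside the threshold with DESeq2 (adjusted p = 0.055). It passed when only genes with at least 10 reads entered (adjusted p = 0.032), when the Cook's cutoff and independent filtering were on (adjusted p = 0.040) and with edgeR (adjusted p = 0.00056). It did not pass with TMM factors (adjusted p = 0.060), without shrinkage (0.058), with the replicate block (0.31) or without any 1 library (log2 fold changes of 1.39 to 2.58, adjusted p = 0.28 to 0.70). In cDNA the log2 fold change was 1.48 (SE 0.88, adjusted p = 0.36), and edgeR called it (1.59, adjusted p = 0.041).

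Acvr1, a BMP type I receptor also known as ALK2 (GRCm38, chr2:58388644-58567157, - strand), had 1 and 4 reads in Direct RNA Undiff and 9 and 20 reads at Day4, a mean 8.09-fold higher (3.64 ± 1.09 to 29.4 ± 3.28 CPM, SD, n = 2). In cDNA the counts were 2 and 2 in Undiff and 5 and 9 at Day4. The states did not overlap on either kit, and the log2 fold change in Direct RNA was 2.41 (SE 1.02, adjusted p = 0.12 with DESeq2 and 0.0020 with edgeR). In cDNA the DESeq2 value of Acvr1 was 0.88 (SE 1.28, adjusted p = 0.87), with a mean normalized count of 4.03, under the minimum for a call. Acvr1b, the activin and nodal type I receptor (GRCm38, chr15:101174067-101213684, + strand), had 6 and 25 reads in Direct RNA Undiff and 4 and 22 reads at Day4. The states of Acvr1b overlapped in Direct RNA (22.4 ± 7.30 and 22.0 ± 11.1 CPM), whereas in cDNA, with 1 and 11 reads in Undiff and 8 and 28 at Day4, they did not. The log2 fold changes of Acvr1b were -0.10 (95% interval -1.80 to 1.60) in Direct RNA and 1.06 (95% interval -0.99 to 3.10) in cDNA, so that changes of several-fold in either direction lay within the intervals. Bmpr1b (GRCm38, chr3:141837136-142169425, - strand) was close to the limit of detection, with 4 reads in Direct RNA Day4 replicate 2 and none in the other 3 Direct RNA libraries. In cDNA Bmpr1b had 0 and 1 reads in Undiff and 2 and 5 reads at Day4.

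**Figure D2:**
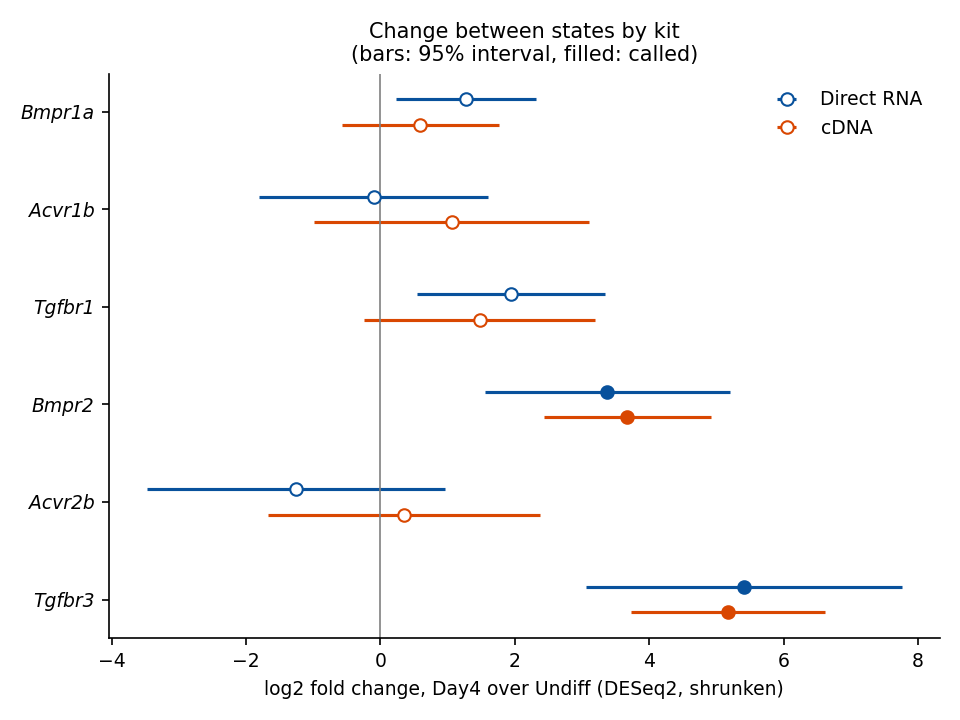
Log2 fold change of Day4 over Undiff (horizontal axis, DESeq2, shrunken) for the 6 receptors with a mean normalized count of at least 5 on both kits, with 95% intervals and filled points for called genes, in blue for Direct RNA and in orange for cDNA. Bmpr2 (3.38 and 3.68) and Tgfbr3 (5.41 and 5.17) were called on both kits, and the fitted value of Tgfbr3 in Direct RNA was set against Undiff libraries at 0.

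Over the set, 8 of 10 receptors reached a mean normalized count of 5 in Direct RNA and 6 of 10 in cDNA. DESeq2 called 2 higher and 0 lower on each kit (Bmpr2 and Tgfbr3), where 9.54% of 9646 genes in Direct RNA and 8.69% of 10271 genes in cDNA were called higher, and 7.67% and 9.24% lower. None of the receptors had an unadjusted p under 0.05 for a lower level, and edgeR also called 0 lower. With edgeR, 5 receptors were called higher in Direct RNA (Acvr1, Bmpr1a, Bmpr2, Tgfbr1 and Tgfbr3) against 18.7% of genes, and 3 in cDNA (Bmpr2, Tgfbr1 and Tgfbr3) against 17.0%. The median log2 fold change was 1.60 over the 8 receptors in Direct RNA and 1.27 over the 6 in cDNA, beside 0.025 and 0.0019 over all genes tested, and the former was the same with Tgfbr3 put at its bound. Among the receptors with a mean normalized count of at least 5, both Day4 libraries lay above both Undiff libraries for 5 of 8 in Direct RNA. In cDNA it was 5 of 6, Acvr2b being the exception. Over all such genes that order was found for 37.3% and 43.1%. Under that count the order rested on few reads, as for Acvr2a in cDNA, with no read in Undiff and 1 read in each Day4 library. The exact permutation test of 2 against 2 libraries cannot go below p = 0.333 two-sided, so that only the fits over all genes could pass a threshold.

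The receptors were also ordered within each group by CPM per kb of the longest transcript. Bmpr1a had the highest mean in Direct RNA Undiff (8.20 ± 2.71 CPM per kb), in cDNA Undiff (3.49 ± 1.07) and in Direct RNA Day4 (21.7 ± 7.84). In Direct RNA Day4 its libraries (27.2 and 16.2 CPM per kb) overlapped those of Tgfbr1 (17.2 and 9.42). In cDNA Day4 the mean of Tgfbr3 was the highest (20.3 ± 14.0 CPM per kb), ahead of Bmpr1a (6.69 ± 1.17) and Bmpr2 (6.36 ± 1.67). The last pair did not differ beyond the spread of the replicates on this scale, whereas on CPM not divided by length Bmpr2 (82.0 ± 21.6) and Bmpr1a (39.8 ± 6.98) were apart in cDNA Day4. In Direct RNA Undiff, Acvr1b (5.07 ± 1.65 CPM per kb) and Acvr2b (4.62 ± 1.14) followed Bmpr1a. Bmpr2 had the lowest mean of the receptors with a read there, at 0.376 ± 0.412. Bmpr1b, Tgfbr2 and Tgfbr3 had no read in that group, and the depth does not set their place against Bmpr2. At Day4 Bmpr2 reached 4.85 ± 3.59 CPM per kb in Direct RNA, where on plain CPM its mean came after those of Bmpr1a and Tgfbr1, and per kb its level overlapped those of Acvr1b (4.97 ± 2.52) and Acvr2a (3.44 ± 2.16). Tgfbr1 (13.3 ± 5.47 CPM per kb), Acvr1 (8.94 ± 0.995) and Tgfbr3 (8.76 ± 4.83) came between these and Bmpr1a, and Acvr1 and Tgfbr3 did not differ beyond their spread. Across the 4 groups on CPM, cDNA Undiff lay below every other group for Bmpr1a, Acvr1, Acvr1b and Tgfbr1, Direct RNA Day4 lay above every other group for Bmpr1a, Acvr1, Tgfbr1 and Tgfbr2, and Direct RNA Undiff did so for Acvr2b. For Bmpr2 and Tgfbr3 the Day4 groups of both kits overlapped, and for the genes without a read in Direct RNA Undiff the depth does not set which Undiff group was lower. A nanopore read can span a whole transcript, so that division by length may lower a long gene such as Bmpr2 more than its molecules would.

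Summed over the 10 receptors, the level was 123 and 116 CPM in Direct RNA Undiff and 526 and 304 CPM at Day4, and in cDNA it was 48.5 and 35.4 CPM in Undiff and 201 and 375 CPM at Day4. Without Bmpr2 and Tgfbr3, the other 8 receptors still summed to more at Day4 in each library, at 115 and 115 CPM against 356 and 241 CPM in Direct RNA and at 41.1 and 29.2 CPM against 70.6 and 94.4 CPM in cDNA. The make-up of the receptor reads moved as well. Tgfbr3 took 0 of 43 and 0 of 105 receptor reads in Direct RNA Undiff, and 14.1% (95% Wilson interval 9.41 to 20.6) and 10.7% (7.31 to 15.4) at Day4. In cDNA its share went from 6.52% and 4.05% to 31.7% (26.4 to 37.5) and 49.0% (45.5 to 52.5). Type I receptors took 72.1% (57.3 to 83.3) and 79.0% (70.3 to 85.7) of the receptor reads in Direct RNA Undiff and 58.4% (50.4 to 66.0) and 70.1% (63.8 to 75.7) at Day4. Both Day4 shares lay below both Undiff shares, but the intervals were apart only between Undiff replicate 2 and Day4 replicate 1. In cDNA their share was 65.2% and 78.4% in Undiff and 30.6% and 21.5% at Day4. Their summed level was higher at Day4 all the same, at 307 and 213 CPM against 89.0 and 91.5 CPM in Direct RNA and at 61.4 and 80.9 CPM against 31.6 and 27.8 CPM in cDNA. These shares are of reads and not per length, and their intervals cover counting error only.

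**Figure D3:**
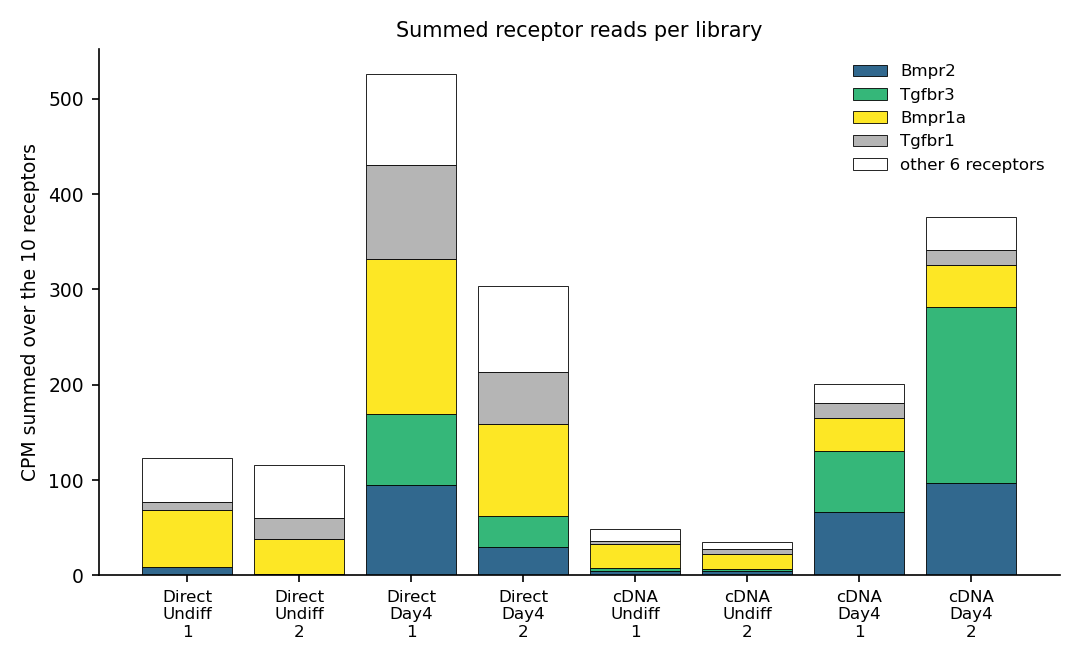
CPM summed over the 10 receptors (vertical axis) in each of the 8 libraries, stacked by Bmpr2, Tgfbr3, Bmpr1a, Tgfbr1 and the other 6 receptors. The sums lay between 35.4 and 123 CPM in Undiff libraries and between 201 and 526 CPM in Day4 libraries, and in cDNA Day4 the Bmpr2 and Tgfbr3 segments took most of the column.

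To show what lies in front of the transcription starts of receptors that were called and of receptors that were not, the 250 bases before each RefSeq start (GRCm38.p6) were searched on both strands. An entry was found for 9 of the 10 receptors, all but Tgfbr3. The GC box GGGCGG, the site of Sp1-type factors, was present before a start of 7 of them (Bmpr1a, Acvr1, Acvr1b, Tgfbr1, Bmpr2, Acvr2a and Acvr2b) and in neither Tgfbr2 nor Bmpr1b. Counted by start, 7 of 12 windows held it, beside 32.7% of 32851 promoters of the same length. The hexamer AGGTCA, which nuclear receptors such as the RA receptors bind, was present before 1 of the 3 starts of Bmpr1b and in no other receptor, beside 14.0% of all promoters. The palindrome GTCTAGAC, a Smad site, was in none of them and in 0.167% of all promoters. For Bmpr2 and Tgfbr1 a stretch of 30 bases around a GC box is printed, with the box in capitals (CCGCCC is the same box read on the other strand), and for Bmpr1b the stretch around AGGTCA. They stand at chr1:59764239-59764268 (+ strand), chr4:47353077-47353106 (+ strand) and chr3:141931677-141931706 (- strand), each written 5′ to 3′ on the strand of its gene.
Bmpr2: cccatcgagtccCCGCCCtccccccccccc
Tgfbr1: ccagggccccgcGGGCGGggctctcggcta
Bmpr1b: gtgtgggcgtctAGGTCAaactcctttctt

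The window of Bmpr2 held 22 CG dinucleotides, more than 85.2% of all promoters, and those of Acvr2a, Acvr1 and Acvr1b held 49, 46 and 42, each more than 99% of promoters. The 3 windows of Bmpr1b, the receptor with the fewest reads in Direct RNA, held 1, 5 and 5, and the median over all promoters was 6. In the GENCODE annotation the Bmpr2 and Acvr1 windows lie within annotated exons over all 250 bases, so that the RefSeq start is not the only annotated start there. A match of letters is a description of the sequence, and no binding was measured.

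The question whether the kits gave the same change between states was addressed by the interaction of kit and state over all 8 libraries. None of the 10 receptors passed (adjusted p = 0.9999 for each with DESeq2), none had an unadjusted p under 0.05, the smallest being 0.27 for Acvr2b, and edgeR called 0 of them. For Bmpr2 the change in cDNA minus that in Direct RNA was -0.094 on the log2 scale (SE 1.23, 95% interval -2.51 to 2.32). For Tgfbr3 it was -1.68 (SE 1.81, 95% interval -5.22 to 1.86). The latter value depends on the fit because the Direct RNA Undiff libraries are at 0. These intervals allow differences between kits of several-fold. Over all genes, 0.0116% (2 of 17267) passed the interaction test. Scaling by TMM moved the median interaction over all genes from -0.063 to 0.055 and turned the value of Bmpr2 to 0.043.

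Between kits, with state as a covariate, Tgfbr3 was higher in cDNA than in Direct RNA, and Tgfbr1 and Acvr1 were lower. The input of RNA differed with the kit as well, so that these ratios cannot be assigned to either. With DESeq2 the log2 ratio of cDNA over Direct RNA was 1.90 for Tgfbr3 (SE 0.56, adjusted p = 0.0025) and -1.41 for Tgfbr1 (SE 0.43, adjusted p = 0.0037). For Acvr1 it was -1.60 (SE 0.63, adjusted p = 0.034), and the replicate block took that call (-1.52, adjusted p = 0.083). Over all genes, 24.7% were called higher and 26.6% lower in cDNA, so that 1 and 2 of the 7 receptors with a mean normalized count of at least 5 were near that background, and edgeR called 5 receptors beside 56.1% of all genes. The Tgfbr3 call was lost without cDNA Day4 replicate 2 (1.35, adjusted p = 0.13) and the Tgfbr1 call without Direct RNA Day4 replicate 1 (-1.15, adjusted p = 0.071). That of Acvr1 was lost without any 1 of 6 libraries (adjusted p between 0.062 and 0.22), namely Direct RNA Undiff replicate 2, cDNA Undiff replicate 2 and the 4 Day4 libraries. Bmpr2 was just outside the threshold (1.06, SE 0.49, adjusted p = 0.075) and was called with TMM size factors (1.19, adjusted p = 0.033), with edgeR (1.29, adjusted p = 0.0027), without Direct RNA Undiff replicate 1 (1.25, adjusted p = 0.045) and without Direct RNA Day4 replicate 1 (1.67, adjusted p = 0.0074). Bmpr1a (-0.71, adjusted p = 0.082) and Acvr1b (-1.15, adjusted p = 0.090) were lower in cDNA by amounts that missed the threshold, although edgeR called Acvr1b (adjusted p = 0.020), as did DESeq2 without Direct RNA Day4 replicate 1 (-1.41, adjusted p = 0.048).

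Acvr2a showed the widest gap between kits, with 13 and 16 reads in the Undiff and Day4 libraries of Direct RNA and 0 and 2 reads in the deeper cDNA libraries. Every Direct RNA library, at 8.61, 11.02, 28.2 and 10.8 CPM, was above every cDNA library, the highest of which was at 0.759 CPM. The log2 ratio was -3.95 (SE 0.87, adjusted p = 3.7e-05), and the gene was not called only because its mean normalized count of 4.96 was just under 5. It was called where leaving out 1 library lifted that mean (log2 ratios between -3.99 and -3.59 without Direct RNA Undiff replicate 1, cDNA Undiff replicate 1 or 2, or cDNA Day4 replicate 1). Its exons share 446 bases with those of Orc4 on the opposite strand, a gene that was counted, and the study's methods name strand-specific gene counting for Direct RNA alone. The part of this overlap in the difference was not tested. Genes with a longest transcript of at least 5000 bases were called higher in cDNA in 15.5% and lower in 36.6% of 2190 cases, against 26.8% and 23.8% of 7885 shorter genes. On the long side of that limit the log2 ratios were -3.95 for Acvr2a (5686 bases), -1.41 for Tgfbr1 (5756 bases), -0.97 for Tgfbr2 (8092 bases), -0.71 for Bmpr1a (5956 bases), 0.18 for Bmpr1b (5349 bases), 1.06 for Bmpr2 (12899 bases) and 1.90 for Tgfbr3 (6087 bases). On the short side they were -1.60 for Acvr1 (3293 bases), -1.15 for Acvr1b (4418 bases) and 0.17 for Acvr2b (3175 bases). The part of length in these ratios was not tested.

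**Figure D4:**
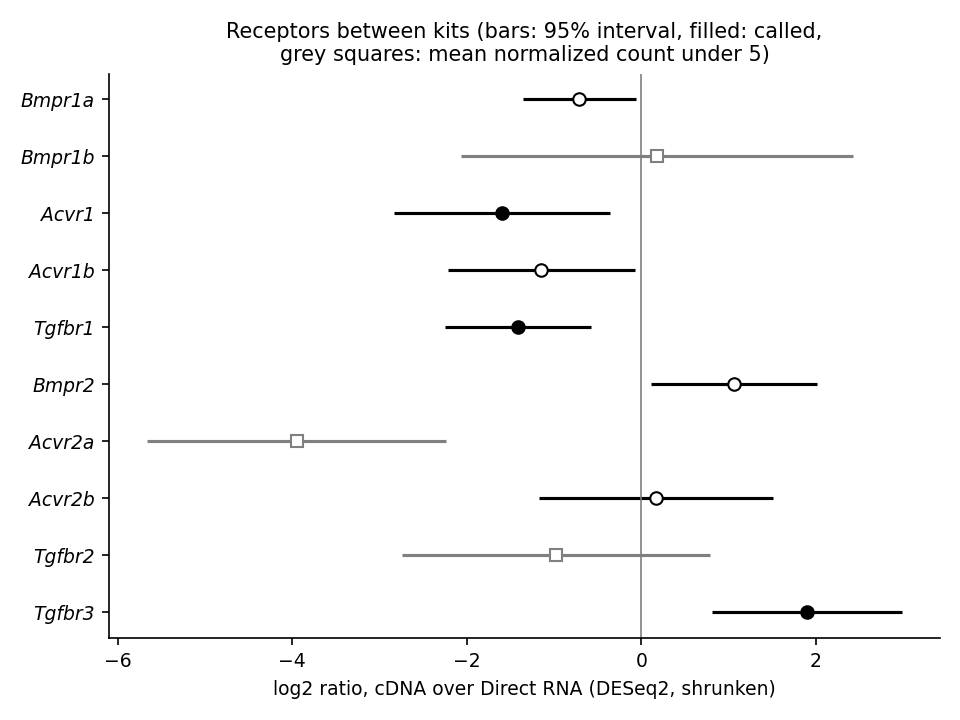
Log2 ratio of cDNA over Direct RNA (horizontal axis, DESeq2 with state as a covariate) for the 10 receptors, with 95% intervals, filled points for called genes and grey squares for those with a mean normalized count under 5. Tgfbr3 lay on the cDNA side (1.90), Tgfbr1 (-1.41) and Acvr1 (-1.60) on the Direct RNA side, and Acvr2a lay farthest from 0 at -3.95.

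Other genes of the pathway were read from the same fits, as a list of 60 ligands, inhibitors, further receptors, Smads, their regulators and target genes. In Direct RNA 12 of the 44 with a mean normalized count of at least 5 were called higher at Day4 and 7 lower, and in cDNA 9 of 35 were called higher and 8 lower, with median log2 fold changes of 0.81 and 0.88. The shares over all genes, against which these counts and those of each group below are to be read, were 9.54% higher and 7.67% lower in Direct RNA and 8.69% and 9.24% in cDNA. The 14 genes called in a single direction on both kits were Tgfb2, Tgfb3, Fstl1, Twsg1, Bambi, Smad3, Id2, Id3 and Tgfbi, all higher, and Nodal, Gdf3, Lefty1, Lefty2 and Tdgf1, all lower. With the replicate number as a block, the calls of Smad3 (adjusted p = 0.055 and 0.099), Lefty2 (0.16 and 0.078) and Tgfb3 (0.83 and 0.79) were lost in Direct RNA and in cDNA, and that of Twsg1 was lost in cDNA (0.11).

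Ligands moved in both directions. Tgfb3 had no read in any of the 4 Undiff libraries whereas at Day4 it had 87 and 116 reads in Direct RNA (at least 39.0-fold higher) and 97 and 313 reads in cDNA (at least 48.8-fold higher). Tgfb2 went from 1 and 0 to 60 and 93 reads in Direct RNA and from 2 and 0 to 218 and 340 reads in cDNA. The product of Tgfb2 is the ligand that betaglycan is best known for presenting to Tgfbr2. The nodal-type ligands fell, Nodal from 133 ± 26.4 to 2.03 ± 2.88 CPM in Direct RNA and from 89.2 ± 47.2 to 1.82 ± 1.51 CPM in cDNA, and Gdf3 from 194 ± 1.63 to 3.39 ± 4.79 CPM and from 155 ± 65.8 to 4.23 ± 4.91 CPM (SD, n = 2). Bmp4, a main BMP ligand of stem cells, did not pass on either kit (log2 fold changes -0.68 and -0.68, adjusted p = 0.72 and 0.71). Of 13 ligands, 9 were tested in Direct RNA with 2 called higher and 3 lower, and 6 in cDNA with 2 called higher and 2 lower. The other ligand called lower in Direct RNA was Inhbb, an activin subunit, whose call was lost with the replicate block (adjusted p = 0.13) and which was under the minimum count in cDNA.

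Among the extracellular inhibitors, Lefty1 and Lefty2, which oppose nodal, fell on both kits. Lefty1 went from 116 ± 18.1 to 2.03 ± 2.88 CPM in Direct RNA and from 100 ± 0.286 to 3.92 ± 1.26 CPM in cDNA, and Lefty2 from 54.0 ± 4.74 to 7.73 ± 9.02 CPM and from 10.8 ± 1.09 to 0.620 ± 0.196 CPM. Fstl1, a follistatin-like secreted protein, rose from 29.99 ± 5.89 to 375 ± 79.0 CPM in Direct RNA and from 72.4 ± 26.3 to 792 ± 560 CPM in cDNA. Twsg1, which binds BMPs, rose with log2 fold changes of 2.68 (SE 0.59) and 2.25 (SE 0.74). The BMP antagonists Nog and Chrd had 0 to 3 reads per library. Thus 2 inhibitors were called higher and 2 lower on each kit, of 5 tested in Direct RNA and 4 in cDNA.

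Of 10 further receptors and co-receptors, Tdgf1, the nodal co-receptor Cripto, fell from 817 ± 35.2 to 4.48 ± 1.34 CPM in Direct RNA and from 831 ± 88.4 to 3.65 ± 3.01 CPM in cDNA. Bambi, a receptor without a kinase that blocks signalling, rose from 18.0 ± 1.07 to 216 ± 15.4 CPM in Direct RNA and from 9.48 ± 1.49 to 166 ± 40.1 CPM in cDNA (SD, n = 2). Rgma, a BMP co-receptor, was called higher in Direct RNA, and the co-receptor genes Cfc1 and Hfe2 were called lower in cDNA. Each was under the minimum count on the other kit, and these calls were lost with the replicate block (adjusted p = 0.21 for Rgma, 0.056 for Cfc1 and 0.19 for Hfe2). The counts were 2 higher and 1 lower of 6 tested in Direct RNA, and 1 higher and 3 lower of 5 in cDNA. A type I receptor outside the set, Acvr1c, had 0 reads in Direct RNA.

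Of the 8 Smads, Smad3, which the activin and TGF-beta type I receptors phosphorylate, was called on both kits, and its log2 fold change was 2.47 in Direct RNA (SE 0.64, adjusted p = 0.0021) and 3.02 in cDNA (SE 0.95, adjusted p = 0.017). Smad3 had 8 and 10 reads in Direct RNA Undiff and 28 and 79 at Day4, and 1 and 4 reads in cDNA Undiff and 25 and 45 at Day4, with no overlap. Smad2, its partner in that branch, differed by 0.22 and 0.18 (SE 0.58 and 0.59). The BMP branch Smads gave log2 fold changes of 1.55 and 2.00 for Smad1 and 1.40 and 1.19 for Smad5, with adjusted p values from 0.25 to 0.31, and Smad9 stayed under the minimum count (1.23 and 0.81). The common partner Smad4 differed by 0.97 and 0.90. Of the inhibitory Smads, Smad6 was called higher in Direct RNA (2.13, SE 0.59, adjusted p = 0.0055) and not in cDNA (1.87, SE 1.00, adjusted p = 0.27), whereas the values of Smad7 were -1.02 and -0.93 (adjusted p = 0.51 and 0.45). The Direct RNA call of Smad6 was lost with the replicate block (2.11, adjusted p = 0.067), as were both calls of Smad3, with the values given above. Over this group DESeq2 called 2 of 7 tested Smads higher in Direct RNA, 1 of 7 in cDNA and 0 lower on either kit. With edgeR 5 were called higher and 1 lower in Direct RNA, and 3 higher and 0 lower in cDNA, beside 18.7% of all genes called higher and 15.1% lower by edgeR in Direct RNA, and 17.0% and 15.6% in cDNA.

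Of 10 target genes, Id2 and Id3, which encode inhibitors of basic helix-loop-helix factors and respond to BMP signals, rose on both kits. Id3 went from 128 ± 14.2 to 1215 ± 336 CPM in Direct RNA and from 154 ± 88.2 to 2654 ± 250 CPM in cDNA, and Id2 from 91.6 ± 20.01 to 636 ± 15.8 CPM and from 98.2 ± 34.5 to 958 ± 8.31 CPM (SD, n = 2). Id1 was close to the threshold, at 1.00 (adjusted p = 0.059) in Direct RNA and 0.98 (adjusted p = 0.15) in cDNA. Tgfbi, a matrix protein named for its induction by TGF-beta, rose with log2 fold changes of 3.79 (SE 0.77) and 3.66 (SE 1.03). Ctgf, another TGF-beta responsive gene, was called lower in Direct RNA (-2.57, SE 0.80) and missed the threshold in cDNA (-2.36, SE 1.00, adjusted p = 0.12), and Msx1 was called higher in Direct RNA and was under the minimum count in cDNA. The replicate block took both Direct RNA calls (adjusted p = 0.17 for Ctgf and 0.14 for Msx1). Targets were called higher in 4 and lower in 1 of 9 tested in Direct RNA, and higher in 3 and lower in 0 of 7 in cDNA. With edgeR the targets called were 6 higher and 1 lower in Direct RNA, and 4 higher and 1 lower in cDNA, to be read against the edgeR shares given for the Smads. Of the 8 regulators of receptors and Smads, Skil was the single one called, lower in cDNA (-1.43, SE 0.43).

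**Figure D5:**
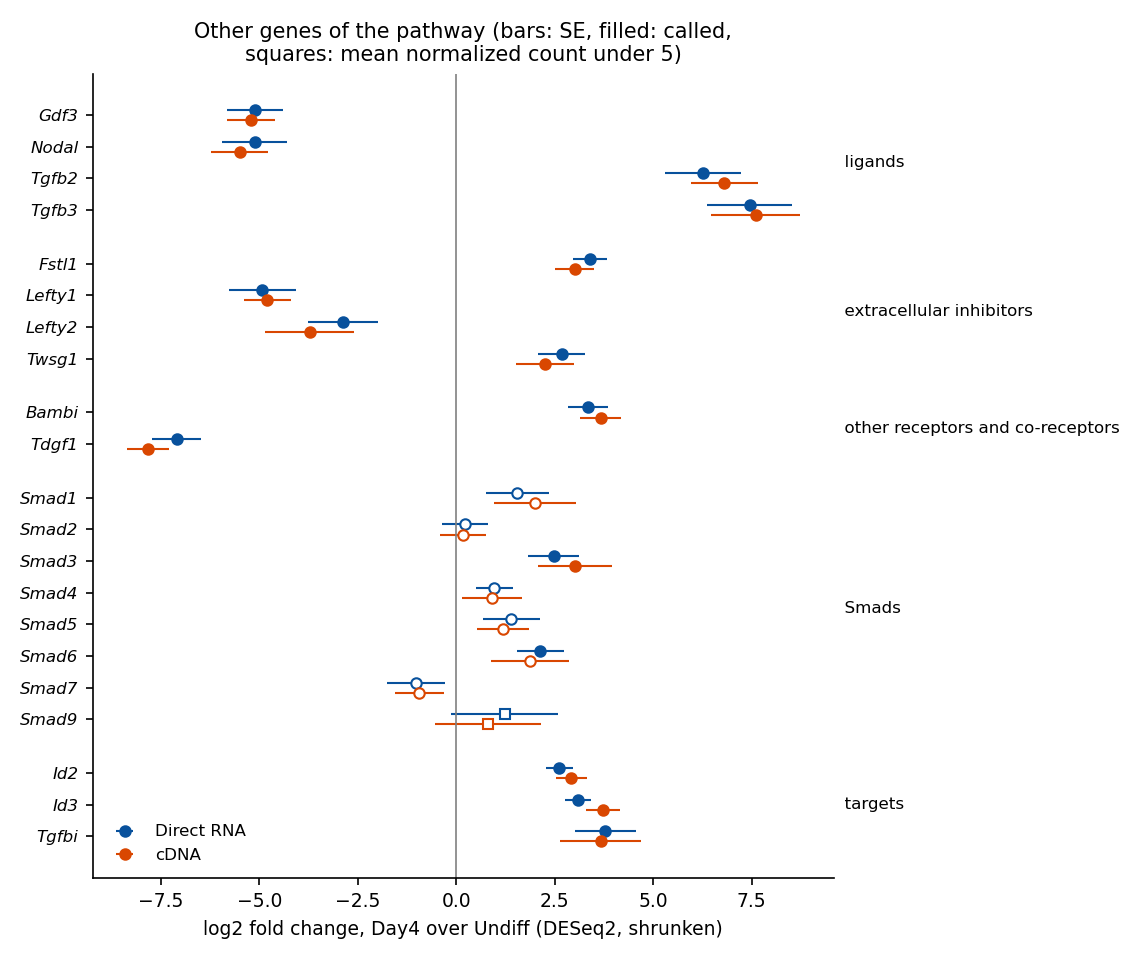
Log2 fold change of Day4 over Undiff (horizontal axis, DESeq2) for the 8 Smads and the 14 pathway genes called in a single direction on both kits (Smad3 is in both sets), grouped by role, with bars of 1 SE, filled points for called genes and squares for a mean normalized count under 5. Tgfb2 and Tgfb3 lay farthest to the right and Tdgf1 (-7.10 and -7.83) farthest to the left, and the fitted values of Tgfb3 were set against Undiff libraries at 0.

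For Bmpr2 and Tgfbr3, the genes whose level ran most alike over the 8 libraries were sought among 8719 genes, by the Euclidean distance of log2(CPM + 1) centred within each kit. Nearest to Bmpr2 were Erbb2ip (distance 0.66), Tcaf1 (0.95) and P4ha2 (1.04), the last a subunit of collagen prolyl hydroxylase, which had 8, 7, 75 and 86 Direct RNA reads next to 16, 29, 201 and 309 cDNA reads, in the order of Undiff and Day4 replicates. Nearest to Tgfbr3 were Nrp1 (1.02), a co-receptor for semaphorins and vascular endothelial growth factor, Gpc6 (1.11), a cell-surface glypican, and 1010001N08Rik (1.21). In that order Nrp1 had 0, 0, 27 and 47 Direct RNA reads next to 1, 0, 63 and 239 cDNA reads. Of the other receptors among the genes compared (Bmpr1a, Acvr1b, Acvr2b, Tgfbr1 and Tgfbr3), Tgfbr3 stood nearest to Bmpr2, at place 505 with a distance of 3.01, and Bmpr2 stood at place 245 in the list of Tgfbr3. The 8 points of such a comparison are 2 states with replicates, so that genes with a change of like size and direction between the states come out as near.

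Markers of other cell types differed between the states as well, in directions that were not the same for every list. Of 6 genes typical of fibroblasts or mesenchyme, 2 had reads in Direct RNA Undiff and all 6 at Day4, and their summed level was 7.71 to 14.3 CPM against 1280 to 2960 CPM. In cDNA it was 4.31 to 9.49 CPM against 227 to 260 CPM, with Col1a2, Col3a1 and Postn at 0 in Undiff. The 8 markers of extraembryonic or visceral endoderm summed to 11.5 to 14.3 CPM and 682 to 1051 CPM in Direct RNA, and to 1.05 to 4.79 CPM and 209 to 249 CPM in cDNA, with Gata6, Afp and Ttr at 0 in Undiff on both kits. The 6 mesoderm markers went from 5.74 to 9.92 CPM up to 187 to 342 CPM in Direct RNA and from 2.87 to 4.22 CPM up to 59.9 to 65.0 CPM in cDNA, with T and Mesp1 at 0 at Day4. Neural markers were lower at Day4 (173 to 187 CPM against 60.0 to 85.4 CPM in Direct RNA, and 83.3 to 183 CPM against 42.4 to 47.8 CPM in cDNA). Endothelial markers were at 95.9 to 161 CPM against 187 to 229 CPM in Direct RNA, and in cDNA at 63.2 to 69.4 CPM against 41.0 to 63.5 CPM, so that the kits differed in direction and the ranges overlapped in cDNA. The part of a change in cell types in the receptor results was not tested.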

How the data were processed

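The authors deposited raw read counts, whole numbers for each gene symbol, obtained by HTSeq (htseq-count) from minimap2 alignments to mm10 with an iGenomes UCSC annotation, and did not normalize them. The study's methods state strand-specific gene counting for Direct RNA and give no separate setting for the cDNA gene counts. The 5 counters of unassigned reads, between 38.1% and 61.7% of a library's total, were left out. CPM was computed per 1000000 reads on genes.

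The receptors and gene lists were chosen with earlier results of these data known. The rule for named genes took the 10 receptors, the Smads, listed genes called in a single direction on both kits, and the 3 nearest patterns per called receptor. Genes called on 1 kit alone, Bmp4, Nog, Chrd, Id1, Acvr1c, the genes whose exons overlap a receptor and single cell type markers at 0 were added after their values were seen.

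DESeq2 1.42.0 in R 4.3.3 was fitted over all genes, per kit for the states (Wald test, shrunken log2 fold changes, Cook's cutoff and independent filtering off, as in the study's methods), over 8 libraries for the kit difference with the same settings and thresholds, and over 8 libraries for the interaction (unshrunken, adjusted p only). Adjusted p-values are Benjamini-Hochberg values from DESeq2 unless edgeR (4.0.16, quasi-likelihood, TMM) is named. Alternatives were TMM factors, edgeR, a 10-read minimum, no shrinkage, Cook's cutoff with filtering, a replicate block and leaving out each library. Fits over 8 libraries without that block took the libraries as independent, although RNA of the same cultures was read with both kits. Intervals of counts are 95% Wilson intervals and cover counting error only, since PCR reads are not independent molecules. Replicate libraries differed beyond sampling noise (chi-square per degree of freedom 2.68 to 14.9). Coordinates and lengths come from GENCODE vM21 on GRCm38, the assembly mm10 names, and promoters from RefSeq (GRCm38.p6).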

Additional observations from a re-analysis of the deposited data

How the results depend on the processing

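Over the alternatives run for 24 receptor results, 247 of 288 values kept their direction and their side of the thresholds. In Direct RNA 2 receptors were called higher, 5 with edgeR, 1 with the replicate block, and 0 to 2 without 1 library. In cDNA the same pair, Bmpr2 and Tgfbr3, was called in every fit, and edgeR added Tgfbr1. Between kits 3 receptors were called, and 5 with edgeR, which called 56.1% of all genes. Leaving out 1 library changed which receptors were called between kits. With the replicate block, 11 pathway genes were called in Direct RNA instead of 19, and 11 in cDNA instead of 17, among them 0 Smads on either kit, 3 ligands on each kit, and 3 inhibitors in Direct RNA and 2 in cDNA. Values near 0 turned in sign. The interaction of Bmpr2 was 0.043 with TMM factors, 0.056 with edgeR and -1.74 to 1.12 without 1 library. Without 1 library, Acvr1b in Direct RNA ranged from -0.62 to 0.29, Acvr2b in cDNA from -0.42 to 1.66, and Acvr2b between kits from -0.19 to 0.72. The cause of these shifts was not tested.

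The replicate numbers could not be shown to pair the cultures, with 2 pairs per comparison. The differences between replicates correlated across 1395 genes at 0.21 between states in Direct RNA, 0.50 between states in cDNA, 0.13 between kits in Undiff and -0.42 between kits at Day4. The replicate block left 1 receptor called in Direct RNA (Bmpr2, 3.15, adjusted p = 0.043) and took the call of Acvr1 between kits (-1.52, adjusted p = 0.083). With the Day4 numbers crossed between kits, chosen after seeing the data, 2 receptors were called between kits and 0 in the interaction. Over all genes the block moved the calls in Direct RNA from 1660 to 843 and those in cDNA from 1842 to 1375. Where 1 library was left out, the lone library of a state was assumed to vary like the other state. Depth limits these results: in Direct RNA 1 read was worth up to 3.53 CPM, and Bmpr1b and Tgfbr2 stayed under the minimum mean count on both kits.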
